A study of Homo sapiens with 6 samples.

Results

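The mRNAs of the matrix metalloproteases (MMP), the ADAM and ADAMTS proteases and their TIMP inhibitors were examined in HT1080 cells with and without stable overexpression of PGK1. HT1080 is an established human fibrosarcoma line and PGK1 is the glycolytic enzyme phosphoglycerate kinase 1. Members were all genes whose symbol is MMP, ADAM or ADAMTS followed by a number, with an optional letter for the MMPs, together with TIMP1 to TIMP4. The table of 21619 entries held 66 such genes, and 30 of them reached a mean of at least 1 normalised CPM, the count scaled to library size, in at least 1 group. PolyA RNA was sequenced in 3 libraries labelled PGK1 WT (genotype WT Cell, called PGK1_WT here) and 3 labelled PGK1 OE (genotype PGK1 OE Cell, called PGK1_OE here), all from HT1080. The table columns of the first group are named v511, and whether those cells carry an empty vector is not stated, nor is whether the overexpressing line is 1 clone or a pool. Nothing in the labels says that replicates came from separate cultures. The p-values therefore weigh the difference between groups only against how much the libraries of a group vary, and that variation may be technical.

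These proteases hold a zinc ion in the active site and are made as inactive precursors. MMPs are secreted or anchored in the cell membrane and together cleave most proteins of the extracellular matrix, ADAMs are membrane proteins that mainly release the outer parts of other surface proteins, and ADAMTS enzymes are secreted and act mostly on proteoglycans, microfibrils and procollagens. TIMPs are small secreted proteins that block the active site, and TIMP2 also helps the membrane protease MMP14 to activate MMP2. HT1080 cells have long served as a model of matrix invasion because they carry MMP14 and both gelatinases, MMP2 and MMP9.

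PGK1 itself stood at 522, 527 and 519 CPM in PGK1_WT replicates 1, 2 and 3 and at 13334, 12216 and 12412 CPM in PGK1_OE, a 24.2-fold difference in the direction of the labels (log2 fold change 4.60 ± 0.04 SE, edgeR adjusted p = 9.65e-14). Libraries held between 34425162 and 40538274 counts, and the 66 members took 0.292% to 0.332% of them in PGK1_WT and 0.407% to 0.427% in PGK1_OE. HT1080 is mesenchymal, and such markers were present, with 7 of 8 at 1 CPM or more and VIM at 1889 ± 227 and 3567 ± 24.3 CPM, while EPCAM of epithelia and PTPRC of leukocytes had 0 counts in every library. The summed level of the 8 mesenchymal markers ranged from 2893 to 3334 CPM in PGK1_WT and from 5384 to 5456 CPM in PGK1_OE. VIM made up most of that sum, and the list was mixed: VIM, FN1, SPARC and LGALS1 rose, CDH2 (log2 fold change -0.54), COL5A1 (-0.27) and THY1 (-3.06, under 1 CPM in both groups) fell, and S100A4 did not pass. The 8 epithelial markers, of which 4 had no counts, summed to 4.72 to 5.91 CPM and 1.12 to 3.35 CPM. ESRP1 fell from 2.34 ± 0.148 to 0.05 ± 0.0866 CPM, and CDH1, under 1 CPM in both groups, from 0.559 ± 0.202 to 0 CPM. CLDN4 made up most of the PGK1_OE sums and did not pass, at 2.40 ± 0.509 CPM in PGK1_WT and 1.84 ± 1.31 CPM in PGK1_OE. KRT19 was under 1 CPM and not tested. Endothelial markers summed to 12.0 to 12.5 CPM in PGK1_WT and 18.4 to 20.5 CPM in PGK1_OE. PECAM1 rose from 3.15 ± 0.727 to 10.3 ± 1.58 CPM. EGFL7 did not pass, at 6.84 ± 0.716 CPM in PGK1_WT and 7.47 ± 0.459 CPM in PGK1_OE. CLDN5 was under 1 CPM in both groups, with a higher mean in PGK1_OE, and the means of VWF, TEK, CDH5, KDR and ERG were lower there without a call. Leukocyte markers summed to 224 to 249 CPM and 227 to 256 CPM. CD68 made up most of these sums, at 227 ± 12.0 CPM in PGK1_WT and 234 ± 14.2 CPM in PGK1_OE, and did not pass. CSF1R fell from 8.31 ± 1.18 to 5.85 ± 0.575 CPM, LYZ rose from 0.402 ± 0.0689 to 1.31 ± 0.318 CPM, and the rest were under 1 CPM in both groups. The part of these differences in the results below was not tested. In bulk RNA, a change in every cell and a change in the share of cells that carry an mRNA cannot be told apart.

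The comparison asked which of these mRNAs differed between PGK1_OE and PGK1_WT cells. Rises were found for 4 membrane-bound MMPs (MMP14, MMP15, MMP16 and MMP17), for TIMP1, TIMP2 and TIMP3, and for ADAM10 and ADAM19, and the steepest falls were found for ADAMTS6 and ADAMTS16. Of the 66 genes 37 passed the filter on low counts and were tested by quasi-likelihood in edgeR, with p-values adjusted by Benjamini-Hochberg over all 14322 entries that passed it. At an adjusted p under 0.05, 16 rose and 11 fell, while 35.4% of all entries tested rose, 35.8% fell and 71.2% changed in either direction. With 73.0% of the tested members changed, the share is near that background. The median log2 fold change was 0.34 over the 37 members and -0.02 over all entries. The groups did not overlap for 29 of the 37, with PGK1_OE higher in 17 and lower in 12, a share of 78.4% against 76.4% of all entries. Among called genes 7 rose and 7 fell by 2-fold or more, or 18.9% in each direction, against 12.0% and 12.1% of all entries. Genes with a high level in only 1 group can pass the filter through that group. Among the 7 that fell by 2-fold or more are ADAMTS13 and ADAMTS20, which were under 1 CPM in both groups and lower in PGK1_OE. The share of 18.9% for such falls therefore rests partly on the filter. With a filter on the mean over all 6 libraries instead, 29 members were tested, of which 16 rose and 9 fell.

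Levels of different genes were compared on the deposited FPKM values, which are scaled for transcript length. MMP14 was the most abundant member in both groups, at 386 ± 44.0 FPKM in PGK1_WT (mean ± SD, n = 3, as for all levels below) and 648 ± 29.5 FPKM in PGK1_OE. In PGK1_WT it was followed by TIMP2 (70.3 ± 5.26 FPKM), ADAM9 (68.1 ± 0.117 FPKM), TIMP1 (60.0 ± 5.43 FPKM), ADAM17 (50.1 ± 4.14 FPKM) and ADAMTS6 (44.5 ± 2.00 FPKM). The libraries of TIMP2 and ADAM9 overlapped, as did those of TIMP2 and TIMP1 and those of TIMP1 and ADAM17, while those of ADAM17 lay above those of ADAMTS6. In PGK1_OE the order was TIMP1 (106 ± 7.16 FPKM), TIMP2 (103 ± 1.58 FPKM), ADAM9 (51.3 ± 2.79 FPKM) and ADAM15 (44.0 ± 2.16 FPKM), of which TIMP1 and TIMP2 overlapped. ADAMTS6 went from rank 6 of 66 to rank 10, at 7.36 ± 0.438 FPKM, and ADAMTS16 from rank 9 to rank 23, while ADAM19 went from rank 13 to rank 9.

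**Figure D1:**
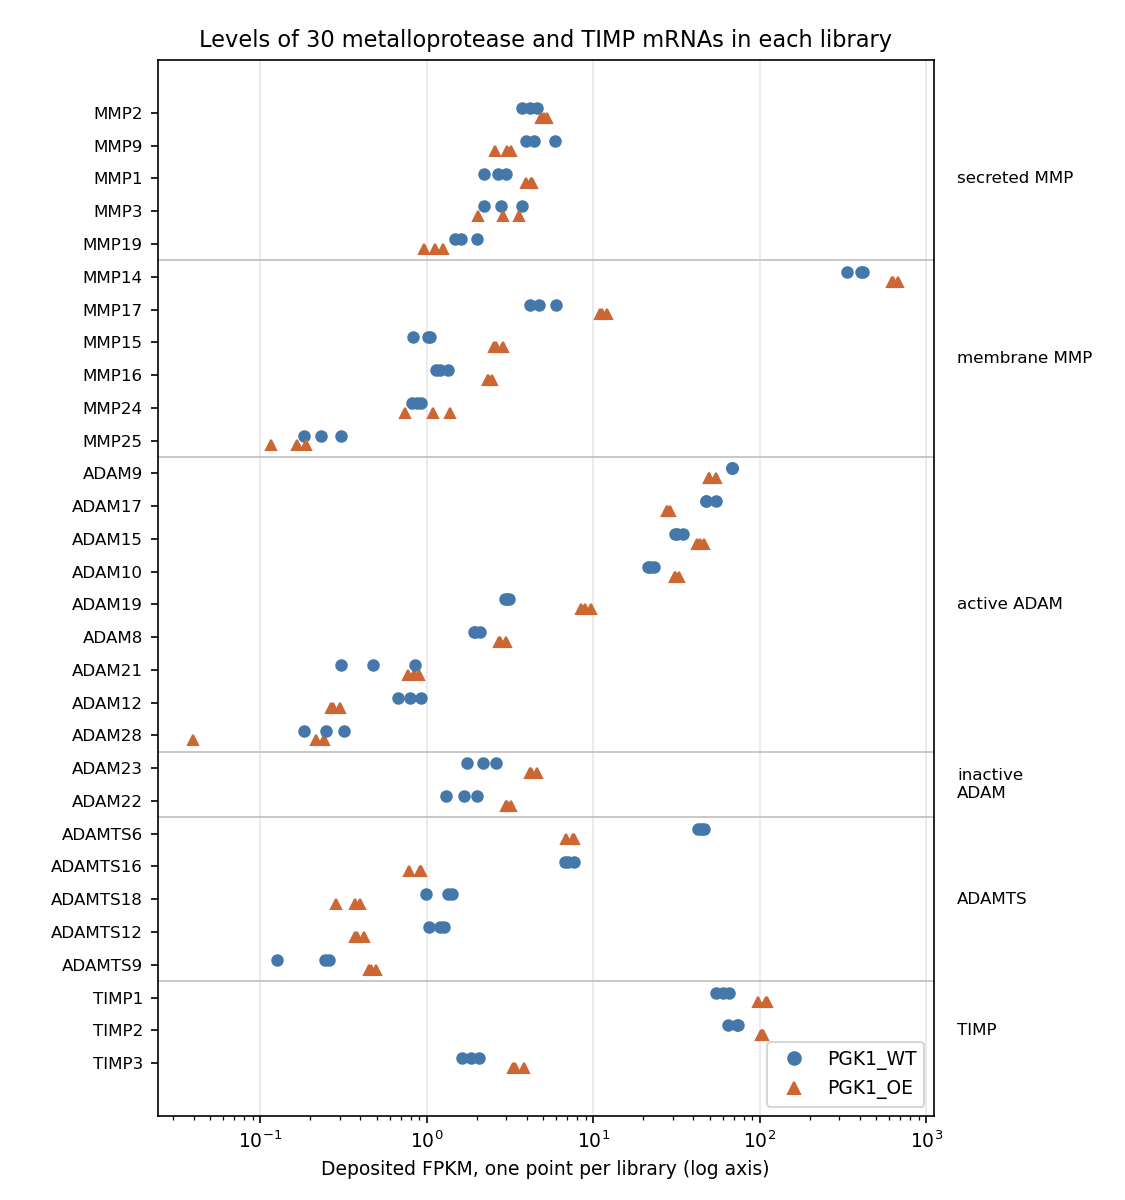
Deposited FPKM (log axis) of the 30 members at 1 CPM or more in a group, 1 point per library, with circles for PGK1_WT and triangles for PGK1_OE, grouped by class. MMP14 lies furthest right in both groups, and the triangles of ADAMTS6 and ADAMTS16 lie left of all their circles.

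Promoter sequence is shown for 4 members that stand for the pattern: ADAMTS6 as the most abundant member that fell by more than 2-fold, ADAM19 as the largest rise, MMP14 as the most abundant member and TIMP3 as an inhibitor. The stretches lie upstream of the RefSeq start on GRCh38.p14 and stop where an annotated exon begins, and they read 5′ to 3′ on the gene's strand. Capitals mark matches to the motifs searched, which in these 4 are GGGCGG (GC box), ACGTG (core of the hypoxia response element) and CACGTG (E-box, which holds the former on both strands).
ADAMTS6, chr5:65481921-65482170, minus strand: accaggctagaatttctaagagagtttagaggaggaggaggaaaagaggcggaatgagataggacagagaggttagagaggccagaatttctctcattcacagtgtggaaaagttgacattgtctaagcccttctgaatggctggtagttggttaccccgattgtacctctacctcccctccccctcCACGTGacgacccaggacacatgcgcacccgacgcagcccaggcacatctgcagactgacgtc
ADAM19, chr5:157575776-157576025, minus strand: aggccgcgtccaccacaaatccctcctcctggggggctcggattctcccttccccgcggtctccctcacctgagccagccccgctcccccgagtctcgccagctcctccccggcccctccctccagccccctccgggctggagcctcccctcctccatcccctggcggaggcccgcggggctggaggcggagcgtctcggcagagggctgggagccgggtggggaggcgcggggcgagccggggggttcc
MMP14, chr14:22836335-22836556, plus strand: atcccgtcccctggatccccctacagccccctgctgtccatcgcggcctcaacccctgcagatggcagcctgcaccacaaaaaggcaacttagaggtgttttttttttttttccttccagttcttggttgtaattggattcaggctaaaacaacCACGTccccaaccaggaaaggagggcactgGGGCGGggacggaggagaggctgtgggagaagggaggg
TIMP3, chr22:32801455-32801700, plus strand: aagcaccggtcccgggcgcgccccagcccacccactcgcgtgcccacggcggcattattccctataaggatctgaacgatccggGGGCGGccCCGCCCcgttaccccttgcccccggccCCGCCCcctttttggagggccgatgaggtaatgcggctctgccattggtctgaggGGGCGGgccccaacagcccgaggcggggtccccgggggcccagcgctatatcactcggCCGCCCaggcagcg
The ADAMTS6 stretch holds 1 E-box and no GC box, that of MMP14 holds 1 GC box and 1 hypoxia element core, that of TIMP3 holds 5 GC boxes, and that of ADAM19 holds none of the motifs. Of the 30 members at 1 CPM or more, 17 had an entry in the promoter table, and their 250 bases upstream were searched on both strands. Unlike the stretches shown, the searched bases were not cut where an annotated exon begins. Those of ADAM10, ADAM17 and ADAM15 start within an annotated exon, and both GC boxes of ADAM22 lie past the start of one. Every secreted MMP at 1 CPM or more (MMP1, MMP2, MMP3, MMP9 and MMP19) lacked an entry and was not searched. The same holds for MMP16, MMP17, MMP25, TIMP2, ADAM9, ADAM28, ADAMTS9 and ADAMTS16, so the counts below do not describe the promoters of these genes. GGGCGG was found in 14 of the 17 and in 42.6% of all 35116 promoters, and ACGTG in 6 (18.5% of all). The shares of all promoters cover the whole reference, whether or not a gene is expressed here, while the 17 were chosen by their level. Whether the 17 differ from other expressed genes was not tested. CACGTG was found in 2, ADAMTS6 and ADAM10 (6.34% of all). TGANTCA, the AP-1 site, was found only in ADAMTS12 among the 17 (6.57% of all), and GGAAGT, an ETS site core, only in ADAM21 (19.5% of all). In ADAMTS12 an annotated exon begins after 48 bases, and the AP-1 match lies past that point. TATAAA, the TATA box (10.7% of all), and TGATGNAA, the core of the amino acid response element (3.14% of all), were found in none of the 17. A match is a description of these letters and no evidence of binding.

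Membrane-bound MMPs act at the cell surface. Of the 7 such genes, 6 were tested, 4 rose and none fell, so that 66.7% were called against 71.2% of all entries. MMP14 (ENSG00000157227, chromosome 14, 22836557 to 22849027, plus strand, GENCODE 29 on GRCh38) encodes the transmembrane collagenase MT1-MMP, which also activates pro-MMP2. It was counted at 1568, 1237 and 1539.7 CPM in PGK1_WT replicates 1, 2 and 3 and at 2655, 2470.2 and 2501 CPM in PGK1_OE replicates 1, 2 and 3. All PGK1_OE libraries lay above all PGK1_WT libraries, and PGK1_WT replicate 2 was the lowest of the 6. The rise was 1.76-fold (log2 fold change 0.81 with SE 0.10, adjusted p = 5.59e-04 in edgeR).

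MMP15 (chromosome 16, 58025566 to 58046901, plus strand) encodes another transmembrane MMP, and rose from a low level. Its values were 3.56, 4.50 and 4.37 CPM in PGK1_WT and 12.7, 11.2 and 11.6 CPM in PGK1_OE, with no overlap, which gave a log2 fold change of 1.52 (SE 0.14 and adjusted p = 1.16e-06 in edgeR). MMP17 (chromosome 12, 131828393 to 131851783, plus strand) is held in the membrane by a lipid anchor. It stood at 11.4, 10.2 and 14.9 CPM in PGK1_WT and 27.6, 29.2 and 27.3 CPM in PGK1_OE (log2 fold change 1.20 ± 0.12 SE, edgeR adjusted p = 7.02e-06). MMP16, a transmembrane MMP on chromosome 8 that like MMP14 can activate pro-MMP2, stood at 16.5, 13.7 and 14.7 CPM in PGK1_WT and 29.5, 31.1 and 29.7 CPM in PGK1_OE. For both MMP16 and MMP17 the groups did not overlap and PGK1_WT replicate 2 was again the lowest library. The log2 fold change of MMP16 was 1.00 (SE 0.08 and adjusted p = 5.17e-07 in edgeR).

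The remaining members of this class did not pass. MMP24, a transmembrane MMP best known from neurons, was at 4.04, 3.76 and 4.31 CPM in PGK1_WT and 5.22, 6.58 and 3.57 CPM in PGK1_OE, with PGK1_OE replicate 3 below all PGK1_WT libraries and the other PGK1_OE libraries above them (log2 fold change 0.34, 95% interval -0.14 to 0.82, edgeR adjusted p = 0.179). Without PGK1_OE replicate 3 its log2 fold change was 0.55 (edgeR adjusted p = 0.0281). An exon of MMP24 overlaps the opposite-strand gene MMP24OS, which had 6325 counts over the 6 libraries, so the MMP24 value is uncertain. MMP25, a lipid-anchored MMP of neutrophils, was close to the 1 CPM limit, at 1.13 ± 0.273 CPM in PGK1_WT and 0.777 ± 0.183 CPM in PGK1_OE (95% interval of the log2 fold change -1.31 to 0.24, edgeR adjusted p = 0.197). MMP23B had 25 counts in all and was not tested.

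**Figure D2:**
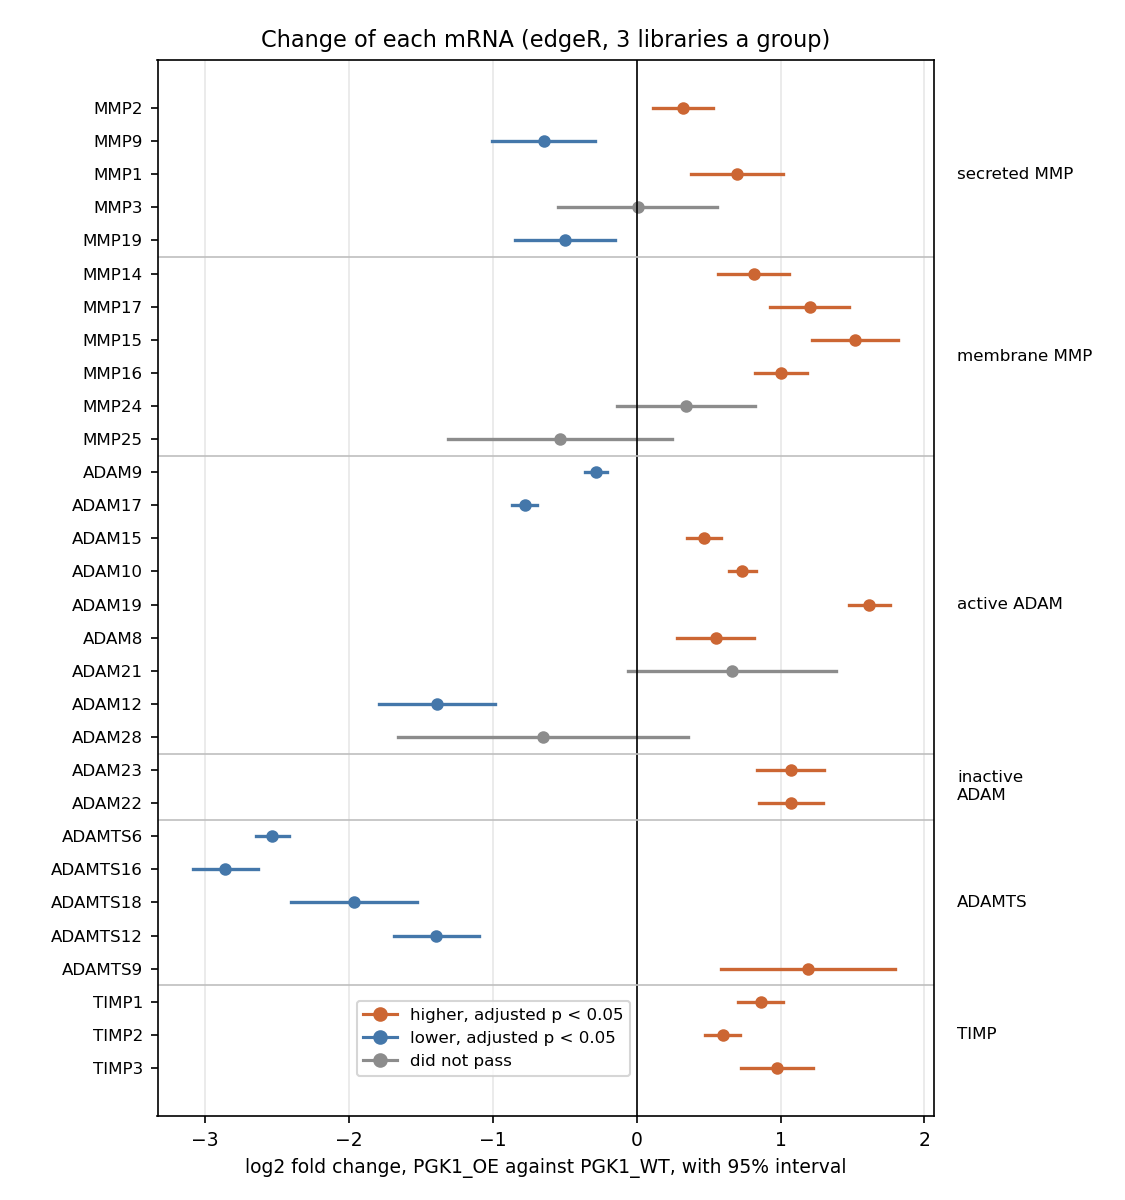
Log2 fold change of PGK1_OE against PGK1_WT with its 95% interval (edgeR, 3 libraries a group) for the 30 members at 1 CPM or more in a group. Of these, 16 rose, 9 fell and 5 did not pass, and ADAMTS16 (-2.86) and ADAM19 (1.62) mark the ends of the range.

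The secreted MMPs that were called moved in both directions and by less than 2-fold. Of 16 genes 7 were tested, of which 2 rose, 2 fell and 3 did not pass, so that 57.1% were called against 71.2% of all entries. MMP2, gelatinase A, whose precursor MMP14 activates, stood at 17.2, 15.4 and 14.0 CPM in PGK1_WT and 19.99, 19.4 and 18.8 CPM in PGK1_OE. The groups did not overlap, but the highest PGK1_WT library came close to the lowest PGK1_OE library (log2 fold change 0.32 with SE 0.09, adjusted p = 0.00923 in edgeR). MMP9, gelatinase B, went the other way, from 10.9, 9.67 and 14.6 CPM in PGK1_WT to 8.20, 6.53 and 7.74 CPM in PGK1_OE. PGK1_WT replicate 3 was the highest and all PGK1_OE libraries were below all PGK1_WT libraries (log2 fold change -0.65 ± 0.16 SE, edgeR adjusted p = 0.00376). MMP19, a secreted MMP of broad substrate range, fell by 0.50 on the log2 scale, from 6.14 ± 0.737 to 4.35 ± 0.339 CPM (SE 0.16 and adjusted p = 0.0148 in edgeR). This fall did not pass without PGK1_WT replicate 3 (edgeR adjusted p = 0.0747) and without PGK1_OE replicate 2 (edgeR adjusted p = 0.0570).

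MMP1, the interstitial collagenase, and MMP3, stromelysin 1, are neighbours in a cluster of 9 MMP genes on chromosome 11 (102520508 to 102955734), which also holds MMP7, MMP20, MMP27, MMP8, MMP10, MMP12 and MMP13. Within this cluster only MMP1 and MMP3 exceeded 1 CPM. MMP1 stood at 5.62, 4.58 and 6.31 CPM in PGK1_WT and 9.17, 9.07 and 8.51 CPM in PGK1_OE, with no overlap (log2 fold change 0.70 with SE 0.15, adjusted p = 0.00114 in edgeR). MMP3 stood at 7.20, 4.21 and 5.41 CPM in PGK1_WT and 4.02, 7.11 and 5.79 CPM in PGK1_OE. The groups of MMP3 overlapped throughout and its log2 fold change of 0.01 had a 95% interval of -0.55 to 0.56 (edgeR adjusted p = 0.981), so that its direction depended on the setting. MMP13, collagenase 3, had 58 counts over the 6 libraries, MMP8 and MMP10 had 12 each, MMP12 had 4, and MMP7, MMP20 and MMP27 had 0. Exons of MMP1 and MMP3 both overlap the opposite-strand pseudogene WTAPP1, so their values may include its reads.

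All 3 TIMPs that were tested rose, as did 35.4% of all entries. TIMP1 (chromosome X, 47582313 to 47586789, plus strand), an MMP inhibitor, stood at 45.0, 53.5 and 49.8 CPM in PGK1_WT and 93.5, 82.6 and 93.3 CPM in PGK1_OE. TIMP2 (chromosome 17, 78852977 to 78925387, minus strand), the inhibitor that also bridges MMP14 and pro-MMP2, stood at 285, 245 and 282 CPM and 402, 414 and 415 CPM. Neither gene had overlapping groups. The log2 fold change was 0.86 (SE 0.07 and adjusted p = 9.16e-07 in edgeR) for TIMP1 and 0.60 (SE 0.05 and adjusted p = 2.08e-06 in edgeR) for TIMP2. TIMP3, which binds to the matrix and inhibits ADAM17 and ADAMTS enzymes as well as MMPs, was less abundant, at 7.94, 8.94 and 10.05 CPM in PGK1_WT and 19.1, 16.6 and 17.2 CPM in PGK1_OE. Its PGK1_OE libraries were all above its PGK1_WT libraries (log2 fold change 0.97 ± 0.11 SE, edgeR adjusted p = 1.09e-05). TIMP4 had 2 counts in all.

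MMP and TIMP mRNA were also summed over each class on the FPKM scale. The MMP sums were 440.2, 358 and 436 FPKM in PGK1_WT and 716, 663 and 668 FPKM in PGK1_OE, and MMP14 made up 93.9% ± 0.272 and 94.96% ± 0.309 of them. The TIMP sums were 130.0, 132 and 135 FPKM in PGK1_WT and 216, 206 and 217 FPKM in PGK1_OE. Both sums were higher in every PGK1_OE library, by 1.66-fold for MMPs and 1.61-fold for TIMPs on group means. TIMP mRNA per MMP mRNA was 0.295, 0.367 and 0.310 in PGK1_WT and 0.302, 0.311 and 0.325 in PGK1_OE. All PGK1_OE ratios fell inside the range of PGK1_WT, but the upper end of that range came from PGK1_WT replicate 2 alone. PGK1_OE replicates 2 and 3 lay above PGK1_WT replicates 1 and 3. These sums describe mRNA and were not tested, and protein or protease activity was not measured here. The ratio weighs every TIMP and every MMP alike, so it does not describe how far MMP14 or any other MMP is inhibited.

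**Figure D3:**
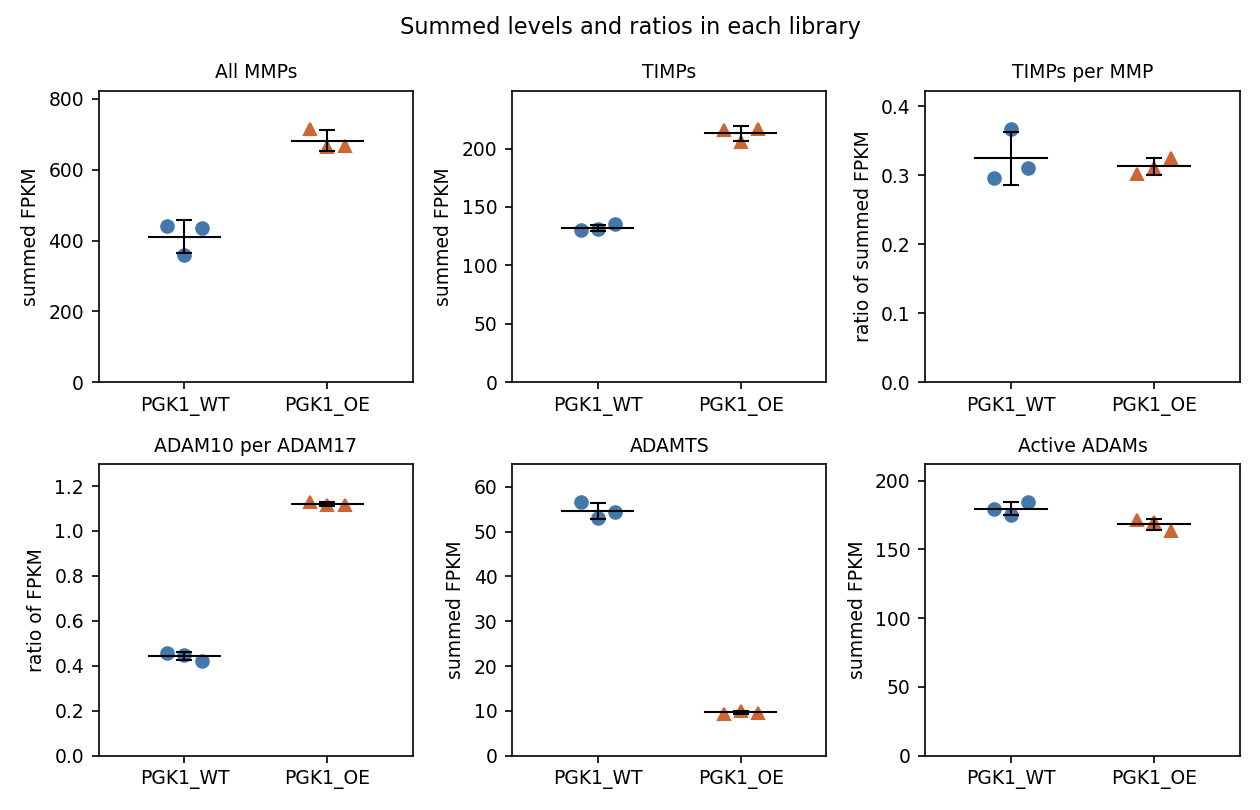
Summed FPKM of all MMPs, TIMPs, ADAMTS genes and ADAMs with a protease active site, and the ratios of TIMP to MMP sums and of ADAM10 to ADAM17, in each library (points), with the mean (line) and SD (bars, n = 3) on axes that start at 0. The ratio of TIMP to MMP sums overlaps between groups, while the ratio of ADAM10 to ADAM17 is above 1.1 in all PGK1_OE libraries and under 0.5 in all PGK1_WT libraries.

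ADAM10 and ADAM17 are the main sheddases of the family, and they moved in opposite directions. ADAM10 (chromosome 15, 58588807 to 58749978, minus strand) releases the outer domains of Notch receptors, cadherins and amyloid precursor protein, among others. It stood at 192, 174 and 190.5 CPM in PGK1_WT and 309, 309.9 and 306 CPM in PGK1_OE (log2 fold change 0.73 with SE 0.04, adjusted p = 2.83e-08 in edgeR). ADAM17 (chromosome 2, 9488486 to 9556732, minus strand), the enzyme that releases tumour necrosis factor and several ligands of the EGF receptor, stood at 230.0, 221 and 229.6 CPM in PGK1_WT and 136, 127 and 133 CPM in PGK1_OE (log2 fold change -0.78 ± 0.04 SE, edgeR adjusted p = 1.06e-08). In neither gene did the groups overlap. On the FPKM scale ADAM17 was the more abundant of the pair in all PGK1_WT libraries and ADAM10 in all PGK1_OE libraries. The ratio of ADAM10 to ADAM17 was 0.458, 0.448 and 0.422 in PGK1_WT and 1.13, 1.12 and 1.12 in PGK1_OE. An ADAM17 exon overlaps the opposite-strand gene IAH1, which had 275 counts over the 6 libraries.

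Both sheddases depend on partner proteins, so a list of 15 such genes was counted, chosen with earlier results of these data known. It holds the inactive rhomboids that carry ADAM17 to the surface, tetraspanins that carry ADAM10, and subunits of gamma-secretase, which cuts many proteins after shedding. Of 14 tested, 9 rose and 1 fell, which is 71.4% called and near the 71.2% of all entries, with a median log2 fold change of 0.36 against -0.02 over all entries. RHBDF1, which encodes iRhom1, stood at 17.5, 17.7 and 18.7 CPM in PGK1_WT and 59.5, 52.8 and 52.8 CPM in PGK1_OE, all PGK1_OE libraries being higher (log2 fold change 1.61 with SE 0.07, adjusted p = 1.89e-09 in edgeR). RHBDF2, which encodes iRhom2, did not pass, at 29.4 ± 1.48 CPM in PGK1_WT and 25.9 ± 3.46 CPM in PGK1_OE (log2 fold change -0.19, 95% interval -0.39 to 0.02, edgeR adjusted p = 0.0918). It was called lower without PGK1_OE replicate 1 (log2 fold change -0.29, edgeR adjusted p = 0.00707) and with library totals in place of composition factors (edgeR adjusted p = 0.0419). FRMD8, which stabilises the iRhoms, rose (0.84, SE 0.06), as did the ADAM10-binding tetraspanin TSPAN14, from 21.8 ± 1.07 to 71.1 ± 1.75 CPM (1.70, SE 0.06), and the gamma-secretase subunit APH1A (0.64, SE 0.04).

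ADAM19 showed the largest rise among members at 1 CPM or more. ADAM19 (chromosome 5, 157395534 to 157575775, minus strand), also called meltrin beta, is a sheddase of neuregulins. It stood at 20.7, 20.9 and 20.4 CPM in PGK1_WT and 67.8, 58.9 and 63.1 CPM in PGK1_OE, a 3.07-fold rise with no overlap (log2 fold change 1.62 ± 0.06 SE, edgeR adjusted p = 1.11e-09). An ADAM19 exon overlaps CYFIP2 on the opposite strand, which had 24041 counts, so this value may include reads of CYFIP2. ADAM12 (chromosome 10, 126012381 to 126388455, minus strand), meltrin alpha, moved the other way. Its counts were 294, 208 and 210 in PGK1_WT and 105, 93 and 85 in PGK1_OE, or 6.46 ± 1.13 and 2.46 ± 0.146 CPM, with all PGK1_OE libraries below all PGK1_WT libraries (log2 fold change -1.39 with SE 0.18, adjusted p = 2.90e-05 in edgeR).

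Changes of the other ADAMs with a protease active site were smaller. ADAM9, which sheds growth factor precursors and binds integrins, stood at 297, 302 and 302 CPM in PGK1_WT and 240.0, 250.2 and 249 CPM in PGK1_OE. The groups lay apart, though the fall was only 0.29 on the log2 scale (SE 0.04 and adjusted p = 1.59e-05 in edgeR). ADAM15 (chromosome 1, 155050566 to 155062775, plus strand), an integrin-binding ADAM, stood at 102, 90.4 and 95.4 CPM in PGK1_WT and 138, 134 and 126 CPM in PGK1_OE (log2 fold change 0.47 ± 0.05 SE, edgeR adjusted p = 8.29e-06). ADAM8, an ADAM first known from leukocytes, was higher in PGK1_OE, at 9.84 ± 0.568 against 6.71 ± 0.480 CPM (log2 fold change 0.55, SE 0.12). ADAM21 did not pass, at 1.83 ± 0.915 CPM in PGK1_WT and 2.89 ± 0.217 CPM in PGK1_OE (log2 fold change 0.66, 95% interval -0.06 to 1.39, edgeR adjusted p = 0.0924). PGK1_WT replicate 2 had 100 counts of it and replicates 1 and 3 had 61 and 38, against 94 to 123 in PGK1_OE. Without PGK1_WT replicate 2 the log2 fold change of ADAM21 was 1.13 (edgeR adjusted p = 0.00566), and it also passed with the replicate block (edgeR adjusted p = 0.0460) and in limma-voom (adjusted p = 0.0308). ADAM28 did not pass either, at 1.26 ± 0.328 and 0.798 ± 0.470 CPM, with overlapping groups (95% interval -1.66 to 0.35). Summed on the FPKM scale, the ADAMs with an active site stood at 179.5 ± 4.74 FPKM in PGK1_WT and 168 ± 4.16 FPKM in PGK1_OE.

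Among the ADAMs that lack a protease active site and act as binding proteins, ADAM22 and ADAM23 rose. Both are surface receptors of the secreted LGI proteins and are best known from neurons. ADAM22 (chromosome 7, 87934143 to 88202889, plus strand) stood at 16.1, 12.1 and 15.0 CPM in PGK1_WT and 29.8, 29.7 and 31.6 CPM in PGK1_OE, and ADAM23 (chromosome 2, 206443539 to 206621130, plus strand) at 15.6, 11.5 and 14.3 CPM and 28.2, 30.5 and 28.3 CPM. In both genes PGK1_WT replicate 2 was the lowest library and the groups did not overlap. Their log2 fold changes were 1.07 (SE 0.10 and adjusted p = 1.67e-06 in edgeR) and 1.07 (SE 0.11 and adjusted p = 2.79e-06 in edgeR). Of the 8 genes in this class 4 were tested, and the 2 that rose are 50% of them against 71.2% called over all entries. ADAM11 and ADAM32 did not pass and were under 1 CPM in both groups.

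The ADAMTS genes held the steepest falls. Of 19 genes 8 were tested, of which 6 fell and 1 rose, or 75.0% lower and 87.5% called against 35.8% lower and 71.2% called over all entries. At 1 CPM or more in a group were 5 of the 19, of which 4 fell. The median log2 fold change of the 8 was -1.68. Of these 8, 3 (ADAMTS7, ADAMTS13 and ADAMTS20) were under 1 CPM in both groups, with a lower mean in PGK1_OE. They could pass the filter on low counts through PGK1_WT, so these shares and this median rest partly on that filter. The FPKM sum over all 19 genes went from 54.7 ± 1.79 to 9.64 ± 0.322, of which ADAMTS6 alone made up 81.3% ± 1.17 and 76.3% ± 2.82. ADAMTS6 (ENSG00000049192, chromosome 5, 65148736 to 65481920, minus strand) acts on fibrillin microfibrils. Its counts were 13396, 11306 and 12441 in PGK1_WT and 2186, 2400 and 2113 in PGK1_OE, or 353, 319.8 and 339.7 CPM and 54.6, 60.5 and 59.9 CPM. The 3 libraries of each group lay close together and far from the other group (log2 fold change -2.53 with SE 0.05, adjusted p = 1.31e-11 in edgeR).

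ADAMTS16 and ADAMTS18 are close relatives in sequence, and ADAMTS16 is known to cleave fibronectin. ADAMTS16 (chromosome 5, 5140330 to 5320304, plus strand) stood at 32.6, 35.2 and 32.1 CPM in PGK1_WT and 4.97, 4.79 and 3.97 CPM in PGK1_OE (log2 fold change -2.86 ± 0.10 SE, edgeR adjusted p = 5.42e-10). ADAMTS18 (chromosome 16, 77247813 to 77435114, minus strand) stood at 7.47, 5.91 and 8.06 CPM and 1.75, 2.17 and 1.56 CPM (log2 fold change -1.97 with SE 0.20, adjusted p = 3.24e-06 in edgeR). The groups of both genes were clearly apart, and PGK1_OE levels of ADAMTS18 were near 2 CPM. ADAMTS12 (chromosome 5, 33523535 to 33892192, minus strand), which can cleave cartilage oligomeric matrix protein, stood at 9.15, 8.65 and 8.74 CPM in PGK1_WT and 3.40, 3.40 and 3.29 CPM in PGK1_OE. It too fell in every PGK1_OE library relative to every PGK1_WT library, with a log2 fold change of -1.39 (SE 0.13 and adjusted p = 2.03e-06 in edgeR).

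The member of this family that rose was ADAMTS9 (chromosome 3, 64515654 to 64688000, minus strand), a protease of the proteoglycan versican. It was low in all libraries, with 39, 70 and 78 counts in PGK1_WT and 165, 152 and 133 counts in PGK1_OE, or 1.71 ± 0.597 and 3.91 ± 0.188 CPM. PGK1_WT replicate 1 was the lowest and the groups did not overlap (log2 fold change 1.19 with SE 0.28, adjusted p = 0.00221 in edgeR). Its exons overlap the opposite-strand RNA ADAMTS9-AS1. The other calls in this family were below 1 CPM in both groups. ADAMTS13, the protease of von Willebrand factor, had 31, 42 and 29 counts in PGK1_WT and 20, 5 and 17 in PGK1_OE (edgeR adjusted p = 0.0332), and ADAMTS20 had 13, 10 and 10 and 2, 1 and 5 (edgeR adjusted p = 0.0278). Neither call was stable. That of ADAMTS13 was lost without any 1 of the PGK1_WT libraries or without PGK1_OE replicate 2 (edgeR adjusted p = 0.0600 to 0.121), and that of ADAMTS20 without any 1 library other than PGK1_OE replicate 3 (edgeR adjusted p = 0.0583 to 0.0980). Both were also lost in DESeq2 (adjusted p = 0.0547 and 0.0850) and with the replicate block (edgeR adjusted p = 0.0642 and 0.0585).

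Of the 36 members under 1 CPM in both groups, 11 had 0 counts in every library, 18 had counts but did not pass the filter, and 7 were tested. Just inside the limit were ADAM28 and MMP25, described above, at 1.26 and 1.13 CPM in PGK1_WT. Just outside were ADAMTS13, at 0.933 ± 0.222 CPM in PGK1_WT and 0.369 ± 0.211 CPM in PGK1_OE, and ADAM32, at 0.496 ± 0.213 and 0.737 ± 0.0497 CPM. The 11 without counts were MMP7, MMP20, MMP26, MMP27, ADAM2, ADAM7, ADAM30, ADAMTS8, ADAMTS10, ADAMTS14 and ADAMTS15. At this depth 1 CPM corresponds to between 35.3 and 40.0 counts, so most of these genes rest on few counts.

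Genes that act on the proteases from outside were counted in lists chosen with earlier results of these data known, beside the background of 71.2% changed. Of 16 tested genes of pro-MMP activation and the plasmin cascade 8 rose and 6 fell (87.5% called, median log2 fold change 0.18). PLAU, the urokinase that makes plasmin, stood at 513, 439.7 and 501 CPM in PGK1_WT and 631, 591 and 624 CPM in PGK1_OE (0.34, SE 0.06), and its receptor PLAUR rose too (0.24, SE 0.05). SERPINB2, a urokinase inhibitor, fell (-1.12, SE 0.12), whereas SERPINE2 rose (0.40, SE 0.04). FURIN, the convertase that removes the propeptide of MMP14 and of ADAMs, rose from 88.8 ± 3.16 to 136 ± 12.8 CPM (0.61, SE 0.06). The serine protease PRSS23 had the smallest adjusted p of the list (0.93, SE 0.05 and adjusted p = 9.26e-09 in edgeR), but its exons overlap FZD4 on the opposite strand.

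Of 6 tested genes on a list of other inhibitors and related proteins 4 rose and 1 fell (83.3% called, median 0.44). RECK, a membrane-anchored inhibitor of MMP14, MMP2 and MMP9, stood at 12.6, 11.4 and 10.8 CPM in PGK1_WT and 25.0, 23.2 and 22.5 CPM in PGK1_OE, with all PGK1_OE libraries higher (1.02, SE 0.09 and adjusted p = 1.02e-06 in edgeR). The others that rose were CST3 (0.49), a cystatin that inhibits cysteine proteases, and the testicans SPOCK1 (0.39) and SPOCK2 (1.20). The 1 that fell was PAPLN, from 25.0 ± 1.76 CPM in PGK1_WT to 11.2 ± 4.68 CPM in PGK1_OE (-1.16, SE 0.38 and adjusted p = 0.0456 in edgeR). This call lies close to the threshold. PGK1_OE replicates 1, 2 and 3 stood at 5.77, 13.9 and 13.8 CPM, all below PGK1_WT, so the size of the fall leans on replicate 1. The list also held PCOLCE, which enhances rather than inhibits procollagen cleavage and did not pass. With CST3 and PCOLCE on it, the list is mixed, and its counts do not describe metalloprotease inhibitors alone. Of 11 tested surface partners 8 rose and 1 fell (81.8% called, median 0.42). BSG, the MMP inducer basigin, rose slightly (0.23, SE 0.04), CAV1 rose (0.60, SE 0.04), and the tetraspanin TSPAN12, known to bind ADAM10, rose from 6.37 ± 0.627 to 16.6 ± 0.612 CPM (1.38, SE 0.11). The collagen receptors went in opposite directions, DDR2 from 312 ± 23.5 to 97.7 ± 2.38 CPM (-1.68, SE 0.05) and DDR1 from 26.8 ± 2.67 to 76.6 ± 3.59 CPM (1.51, SE 0.07).

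Of 22 tested transcription factors known to bind MMP promoters 14 fell and 4 rose (81.8% called), with a median of -0.70 against -0.02 over all entries. ETS1 stood at 1057, 1012 and 1058 CPM in PGK1_WT and 252, 263 and 264 CPM in PGK1_OE (-2.01, SE 0.04 and adjusted p = 5.17e-12 in edgeR), and ETS2 (-1.61, SE 0.05), the AP-1 subunit JUN (-1.37, SE 0.05) and HIF1A (-1.41, SE 0.04) fell with it. All 4 were lower in every PGK1_OE library than in any PGK1_WT library. Rises were called for ETV1 (1.47, SE 0.09), SP1 (0.74, SE 0.04), CTNNB1 (0.63, SE 0.04) and TCF7L2 (0.20, SE 0.07). Of 12 tested relatives that the naming rule leaves out, 7 rose and 4 fell (91.7% called, median 0.29). The pappalysin PAPPA2, which cleaves binding proteins of insulin-like growth factors, went from 30.7 ± 2.08 to 6.08 ± 1.10 CPM (-2.34, SE 0.13). THSD4, a protein of the ADAMTS-like group found on microfibrils, fell by 0.87 on the log2 scale (SE 0.06) and the membrane metalloprotease MME, or neprilysin, by 0.56 (SE 0.04), while the endothelin-converting enzyme ECE1 rose (0.50, SE 0.05).

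**Figure D4:**
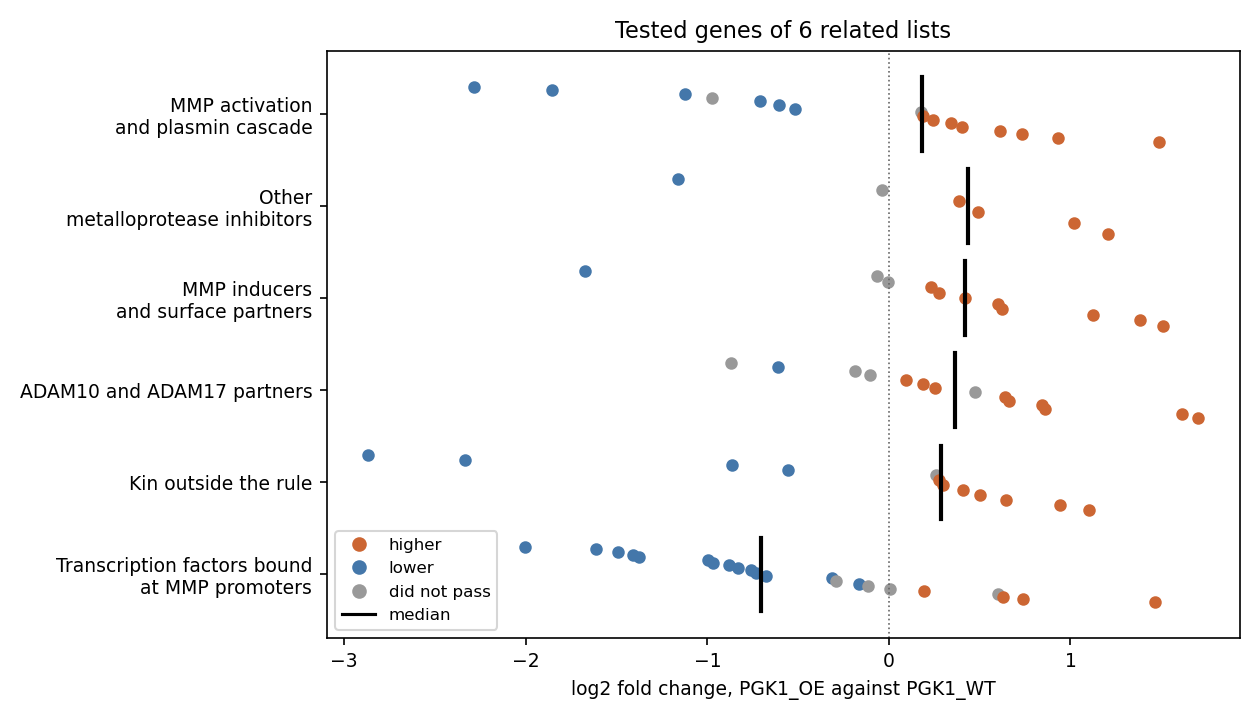
Log2 fold change of PGK1_OE against PGK1_WT for each tested gene of 6 related lists (points, coloured by the edgeR call) with the median of each list (vertical bar). The list of transcription factors lies mostly left of 0, with a median of -0.70, and the other 5 medians lie between 0.18 and 0.44.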

How the data were processed

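Read counts and FPKM values were used as deposited by the authors for 6 libraries, 3 a group, and columns were matched through the sample descriptions. The submitters' processing notes list fastp, HISAT and build hg38. Which program counted reads, whether strand was used, and how FPKM were made is not stated in the labels. The members and lists were chosen with earlier results of these data known. Depth was 34425162 to 40538274 counts per library, and counting error limits genes with few counts.

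edgeR 4.0.16 (R 4.3.3) was applied to the counts: filterByExpr by group, TMM factors and a robust quasi-likelihood fit with group as the only term, tested two-sided. Genes with a Benjamini-Hochberg adjusted p under 0.05 across the whole table were called. The SE is the absolute log2 fold change over the square root of F. CPM are TMM-normalised. Of the 21619 entries, 1158 carry assembled MSTRG identifiers. No pair of libraries looked like 1 library deposited again, since chi-square divided by its degrees of freedom was 7.93 to 15.2 within groups. The steps were tested on simulated counts.

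Named members are all at 1 CPM or more in a group, in full where a group mean reaches 10 CPM or a call at least 2-fold. Of each list, up to 4 genes with the smallest adjusted p and the direct partners RECK, BSG, FURIN, PLAU, PLAUR, RHBDF1, RHBDF2 and TSPAN14 are named, and 1 further gene that this rule names is not reported here. ADAMTS7, ADAMTS20, MMP23B, ADAM11, PCOLCE, PAPLN, ETV1, SP1, CTNNB1, TCF7L2 and the genes without counts were named after their values were seen. Positions and exon overlaps come from GENCODE 29 on GRCh38 and promoters from RefSeq on GRCh38.p14. Where exons of 2 genes overlap, reads cannot be assigned with certainty because strand use is not given. Among members this also touches TIMP2, ADAM10, ADAM15, MMP16, MMP2, MMP9, ADAMTS18, MMP19 and MMP25. Among list genes it touches PLAU, BSG, TSPAN14, APH1A, SERPINB2, PAPLN, HIF1A, TCF7L2, THSD4, ECE1 and MME. Alternatives were RLE factors, library totals, PGK1 left out of the scaling, 3 other filters, DESeq2 1.42.0, limma-voom (limma 3.58.1), limma-trend on FPKM after adding 1 or 0.1 and taking log2, an adjusted p under 0.01, the replicate block, and each library left out.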

Additional observations from a re-analysis of the deposited data

How the results depend on the processing

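Of the 30 members at 1 CPM or more, 26 kept their direction and their side of the threshold in every alternative that could test them. The exceptions were MMP19, MMP24 and ADAM21, whose values stand in the report, and MMP3, which was never called. Below 1 CPM, the calls of ADAMTS13 and ADAMTS20 were lost in several settings, and ADAMTS20 was also lost with no filter on low counts (edgeR adjusted p = 0.0825). The log2 fold change of MMP3 turned to -0.0369 with library totals, -0.00939 with limma-voom, -0.0319 on log2(FPKM + 1) and -0.0436 on log2(FPKM + 0.1), and it ranged from -0.189 to 0.235 when each library was left out. MMP19 (0.0148), ADAMTS13 (0.0332) and ADAMTS20 (0.0278) missed an edgeR adjusted p under 0.01. Members called higher numbered 15 to 17 in all settings and members called lower 8 to 12, except that 7 were called lower on log2(FPKM + 1) and 7 on log2(FPKM + 0.1), where an FPKM of at least 1 in 3 libraries left 23 members to test. DESeq2 called 16 higher and 9 lower. Leaving out each library gave 16 to 17 higher, 8 to 11 lower and between 9694 and 9901 for all entries called. Replicate numbers are shared by the groups, but same-numbered libraries did not deviate together (r = -0.0134, -0.0129 and 0.0952 for numbers 1, 2 and 3), and only those of number 3 correlated best with each other. With the replicate block 17 members were called higher, 9 lower and the number of all entries called was 9943. Beside ADAM21, ADAMTS13, ADAMTS20 and RHBDF2 (edgeR adjusted p = 0.0414), the block changed no call of a named gene that was followed in these settings. PAPLN, PCOLCE, ETV1, SP1, CTNNB1, TCF7L2, ADAMTS7, ADAM11, ADAM32, MMP13 and the cell type markers were not followed in them. Library totals moved the median of all entries by -0.05 on the log2 scale.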
